A study of Mus musculus with 12 samples.

Results

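The 10 genes described here encode the chains that carry the T cell receptor signal and the surface molecules most used to define T cells: the CD3 chains Cd3d, Cd3e, Cd3g and Cd247, the co-receptors Cd4, Cd8a and Cd8b1, and the T cell surface proteins Thy1, Cd5 and Cd2. They were chosen by name for their known roles, with earlier results of these data in view, and are 10 of the 52459 genes in the count table. All 10 passed the filter on low counts that left 16218 genes for testing. RNA was sequenced from γδ and CD4+ T cells sorted from mice that were 7 weeks old when they began 6 weeks on a diet that lacks methionine and choline (MCD), a standard way to bring about steatohepatitis, or on a control diet. The 6 groups were γδ T cells of wild-type (WT) mice on MCD and on control diet, CD4+ T cells of γδTCR-/- mice on MCD and on control diet, and CD4+ T cells of WT mice on MCD and on control diet, with 2 libraries each. Mice of the γδTCR-/- genotype lack γδ T cells throughout, so both of their groups come from an animal without that lineage. The labels give no tissue, no count of mice per library and no statement that libraries came from separate animals, so p-values measure the spread between these libraries, which may be technical. The label of γδ MCD library 2 carries the codes D2 and D1, and D1 is also the code of WT CD4+ MCD library 1, so which mouse or mice it came from is not clear.

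An antigen receptor of a T cell is a pair of variable chains, αβ or γδ, that binds a ligand but has no signalling tail. It is assembled with the CD3γ, CD3δ, CD3ε and CD3ζ chains (Cd3g, Cd3d, Cd3e, Cd247), whose cytoplasmic motifs are phosphorylated by the kinase Lck and recruit Zap70. CD4 and CD8 bind MHC class II and class I beside the αβ receptor and bring Lck to it. In mice, most γδ T cells carry neither co-receptor, the CD8αα form made from Cd8a alone occurs on γδ T cells of epithelia, and the mature γδ receptor is known to be built with CD3γ, CD3ε and CD3ζ while lacking CD3δ.

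Total counts ran from 17035638 to 23203603 per library. Mitochondrial genes took 53.8 to 56.8% of counts in γδ libraries and 40.8 to 52.7% in CD4+ libraries. With at least 10 counts required, γδ MCD detected 8989 and 10125 genes, γδ control 11903 and 12174, and CD4+ libraries 12100 to 13402, so γδ MCD libraries stood apart as the least complex. No 2 of the 12 libraries held the same counts; in the closest of 66 pairs, 15047 genes differed. Trdc, the constant gene of the δ chain, had 538 to 733 CPM (reads scaled to library size after TMM) in γδ libraries and 0.231 to 7.93 CPM in CD4+ libraries. Trac, the constant gene of the α chain, had 30.1 to 87.2 CPM in γδ libraries and 339 to 655 CPM in CD4+ libraries. Among CD4+ libraries, Trdc had 3.69 and 0.920 CPM in knockout MCD and 3.22 and 7.93 CPM in knockout control. It had 2.80 and 0.231 CPM in WT MCD and 0.828 and 2.69 CPM in WT control. After a sort that leaves out γδ T cells, Trdc gives no check of the knockout. Trdc, Tcrg-C1, Tcrg-C2 and Tcrg-C4 together summed to 1740 to 3230 CPM in γδ libraries. In CD4+ libraries this sum was 16 and 26.3 CPM in knockout control and 227 and 307 CPM in WT control. On MCD it was 83.9 and 22.2 CPM in knockout and 123 and 60.4 CPM in WT. Which cells carried this RNA was not tested. Markers of other cells accompanied the γδ sort: the sum of 6 neutrophil and monocyte genes was 868 to 2160 CPM in γδ libraries and 20.3 to 80.5 CPM in CD4+ libraries, led by Lyz2 at 616 to 1616 CPM in γδ libraries. The sum of 6 sinusoidal endothelial genes was 50.4 and 31.9 CPM in γδ MCD libraries and 571 and 1060 CPM in γδ control libraries. In bulk libraries of this kind, fewer cells of a type and less RNA per cell cannot be told apart.

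On the GRCm38 build, the CD3 genes other than Cd247 lie together on chromosome 9, with Cd3g on the minus strand (44969572 to 44980431), Cd3d on the plus strand (44981786 to 44987339) and Cd3e on the minus strand (44998740 to 45009627). The annotated starts of Cd3g and Cd3d lie 1355 bases apart and point away from each other, and those of Cd3d and Cd3e lie 27841 bases apart. Cd8b1 and Cd8a lie 50639 bases apart, start to start, on the plus strand of chromosome 6. The 250 bases before the RefSeq start (GRCm38.p6) are shown for the clustered CD3 genes, Cd8a and Cd5. Of the 10 genes, 6 were matched, and the window of Cd247, with 1 match to CAGGTG, is not shown. The RefSeq starts of Cd3e and Cd5 lie inside the annotated genes, which end at 45009627 and 10739002, so these 2 windows overlap them. Capitals mark a match to a searched motif on either strand: CAGGTG, the E-box bound by the E proteins of lymphocytes, or AGATAA, a site read by zinc finger factors that include Gata3. The windows are Cd3g, chr9:44980432-44980681 (minus strand), Cd3d, chr9:44981536-44981785 (plus strand), Cd3e, chr9:45009612-45009861 (minus strand), Cd8a, chr6:71373177-71373426 (plus strand), and Cd5, chr19:10738975-10739224 (minus strand), each 5′ to 3′ on its gene's strand.
Cd3g: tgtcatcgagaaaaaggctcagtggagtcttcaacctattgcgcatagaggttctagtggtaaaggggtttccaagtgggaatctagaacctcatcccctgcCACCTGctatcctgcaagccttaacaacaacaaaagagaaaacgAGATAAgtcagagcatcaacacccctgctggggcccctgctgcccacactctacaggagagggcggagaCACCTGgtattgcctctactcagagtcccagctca
Cd3d: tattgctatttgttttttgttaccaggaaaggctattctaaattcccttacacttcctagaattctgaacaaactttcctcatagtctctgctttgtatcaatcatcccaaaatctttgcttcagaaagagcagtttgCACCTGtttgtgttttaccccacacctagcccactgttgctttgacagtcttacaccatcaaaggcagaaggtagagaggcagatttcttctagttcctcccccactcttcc
Cd3e: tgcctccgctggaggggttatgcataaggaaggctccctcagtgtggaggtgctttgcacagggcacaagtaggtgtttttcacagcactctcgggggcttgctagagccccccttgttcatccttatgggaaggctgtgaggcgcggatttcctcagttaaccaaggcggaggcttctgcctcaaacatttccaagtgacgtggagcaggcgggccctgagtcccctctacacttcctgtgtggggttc
Cd8a: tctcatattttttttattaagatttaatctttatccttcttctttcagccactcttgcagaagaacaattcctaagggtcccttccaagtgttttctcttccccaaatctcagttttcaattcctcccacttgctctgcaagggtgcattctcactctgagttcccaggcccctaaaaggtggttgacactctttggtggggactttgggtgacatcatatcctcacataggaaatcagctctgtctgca
Cd5: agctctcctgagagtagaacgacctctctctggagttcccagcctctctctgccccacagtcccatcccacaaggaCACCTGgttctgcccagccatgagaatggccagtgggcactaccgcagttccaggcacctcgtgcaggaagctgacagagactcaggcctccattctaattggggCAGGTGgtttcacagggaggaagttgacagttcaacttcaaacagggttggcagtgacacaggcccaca
Cd3g held 2 matches to CAGGTG, printed as its reverse complement, and 1 to AGATAA. Cd3d held 1 match to CAGGTG and Cd5 held 2, 1 on each strand, while Cd3e and Cd8a held none of the motifs searched. CAGGTG occurred in 17.2% and AGATAA in 9.99% of the 32851 promoter windows of the same length. The other motifs searched on both strands, CCGGAA (12% of windows), TGTGGT (14%) and TATAAA (12.4%), were found in none of these 5 windows. None of the 5 motifs overlaps another in the matches shown.

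Of the 4 CD3 genes, Cd3e was the one called between the cell types over both diets. It was higher in γδ than in CD4+ T cells of WT mice, while Cd3d, Cd3g and Cd247 did not pass the test. For Cd3g and Cd247 this mean joins differences of opposite sign. The log2 difference of Cd3g was 0.86 ± 0.48 (SE) on control diet and -0.76 ± 0.48 on MCD. That of Cd247 was -0.72 ± 0.45 on control diet and 0.36 (SE 0.45) on MCD. None of these passed (adjusted p = 0.342 to 0.657, edgeR). Cd3e encodes CD3ε, the chain shared by both dimers with CD3γ and with CD3δ. It had 1045 and 976 CPM in γδ MCD and 1608 and 1488 CPM in γδ control, against 638 and 621 CPM in WT MCD and 746 and 741 CPM in WT control CD4+ libraries. The γδ values lay above those of WT CD4+ libraries without overlap, and the γδ control libraries were the highest of all 12. Knockout CD4+ libraries had 917 and 703 CPM in MCD and 882 and 1107 CPM in control, so 1 of them (control library 2) lay above both γδ MCD libraries. With the diets weighted equally, mean Cd3e was 1279 CPM in γδ and 686 CPM in CD4+ T cells of WT mice, a log2 difference of 0.87 ± 0.14 (SE; quasi-likelihood test of edgeR, Benjamini-Hochberg adjusted p = 0.0031). Within control diet the log2 difference was 1.06 ± 0.20 (adjusted p = 0.0253, edgeR). Within MCD it was 0.68 ± 0.20 and did not pass (adjusted p = 0.0828, edgeR). Scaling by library size alone, which shifted the median of all genes by -0.63 (log2) over both diets, left 0.19 for Cd3e (adjusted p = 0.38), and under MCD it turned the sign to -0.11. The difference over both diets passed under all 22 other settings tried.

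**Figure D1:**
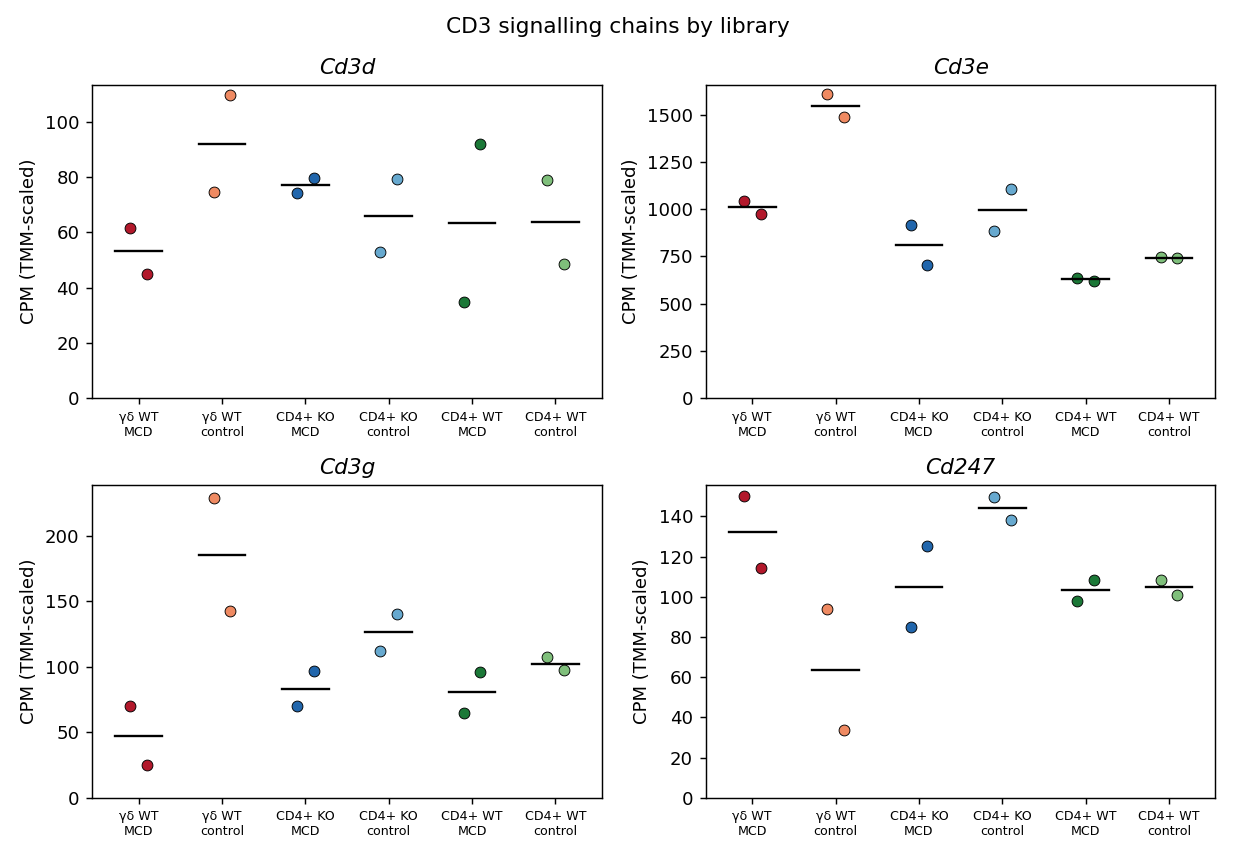
CPM (TMM-scaled) of Cd3d, Cd3e, Cd3g and Cd247 in the 6 groups, γδ groups at the left; bars are means of 2 libraries and points are libraries. Cd3e in the 4 γδ libraries lies between 976 and 1608 CPM, above the 621 to 746 CPM of the 4 WT CD4+ libraries, while Cd3g and Cd247 part the γδ libraries by diet in opposite directions.

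Cd3d encodes CD3δ, the chain that pairs with CD3ε and that the mature mouse γδ receptor is known to lack. Its mRNA was present in γδ libraries, with 61.6 and 45.1 CPM in γδ MCD and 74.7 and 110 CPM in γδ control. Knockout CD4+ libraries had 74.2 and 79.8 CPM in MCD and 52.8 and 79.2 CPM in control. WT CD4+ libraries had 34.6 and 91.9 CPM in MCD and 79.1 and 48.4 CPM in control, so the cell types overlapped. Over all 12 libraries Cd3d spanned 3.16-fold, and no comparison called it.

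Cd3g encodes CD3γ, the partner of CD3ε in both receptor types. It had 70.0 and 24.9 CPM in γδ MCD, against 229 and 142 CPM in γδ control, the lowest and the highest value of all 12 libraries falling in the same cell type. Cd3g in CD4+ libraries stayed between 65.0 and 141 CPM, a 2.16-fold range, against a 9.20-fold range in γδ libraries. The γδ diet groups did not overlap, with a log2 difference of -1.97 ± 0.49, but the adjusted p was 0.104 (edgeR), and the difference of the diet effect between γδ and WT CD4+ T cells, -1.62 ± 0.68, had an adjusted p of 0.441. Cd247, which encodes the CD3ζ chain that carries most of the receptor's signalling motifs, stood the other way round: 150 and 114 CPM in γδ MCD, against 93.7 and 33.6 CPM in γδ control (log2 difference 1.05 ± 0.45, adjusted p = 0.254, edgeR). CD4+ libraries held 84.8 to 150 CPM of Cd247. Its counts are uncertain, because 3007 of its 5329 exon bases lie under exons of Pou2f1 on the opposite strand, and whether counting used strand is not given in the sources used here. Pou2f1, a transcription factor gene, had 185 and 369 CPM in γδ MCD, against 56.6 and 67.7 CPM in γδ control, and its part in the Cd247 values was not tested. Cd3e shares 135 exon bases with the antisense gene Gm48719.

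Library scaling does not enter a comparison of the 4 CD3 genes with each other inside a library, so each gene's count was set against the geometric mean of the 4. On this log2 scale Cd3e averaged 2.97 ± 0.25 in γδ libraries (SD, n = 4) and 2.36 ± 0.23 in all CD4+ libraries (SD, n = 8). The difference of 0.62 had p = 0.00202 in a 2-sided exact permutation test, the smallest that 495 regroupings can give, and an adjusted p of 0.00808 over the 4 chains. Every γδ library lay above every CD4+ library, but narrowly, with 2.697 as the lowest γδ value (MCD library 2) and 2.693 as the highest CD4+ value (knockout MCD library 1). Cd3d differed by 0.04 (adjusted p = 0.873), Cd3g by -0.20 (adjusted p = 0.787) and Cd247 by -0.45 (adjusted p = 0.574) in the same exact test. The SD of Cd3g was 0.97 in γδ and 0.17 in CD4+ libraries, and that of Cd247 was 1.12 in γδ and 0.21 in CD4+ libraries. Against the 4 CD4+ libraries of WT mice only, the Cd3e difference was 0.68 with p = 0.0286, the smallest an exact test of 4 against 4 allows, which cannot pass after adjustment over the 4 chains (adjusted p = 0.114). The 4 ratios share 1 mean, so that of Cd3e also moves with Cd3g and with Cd247, whose counts are uncertain. Set against Cd3d alone, Cd3e overlapped between the cell types. That FPKM ratio was 7.55 and 9.63 in γδ MCD, 9.58 and 6.04 in γδ control, and 3.01 to 8.19 in CD4+ libraries.

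**Figure D2:**
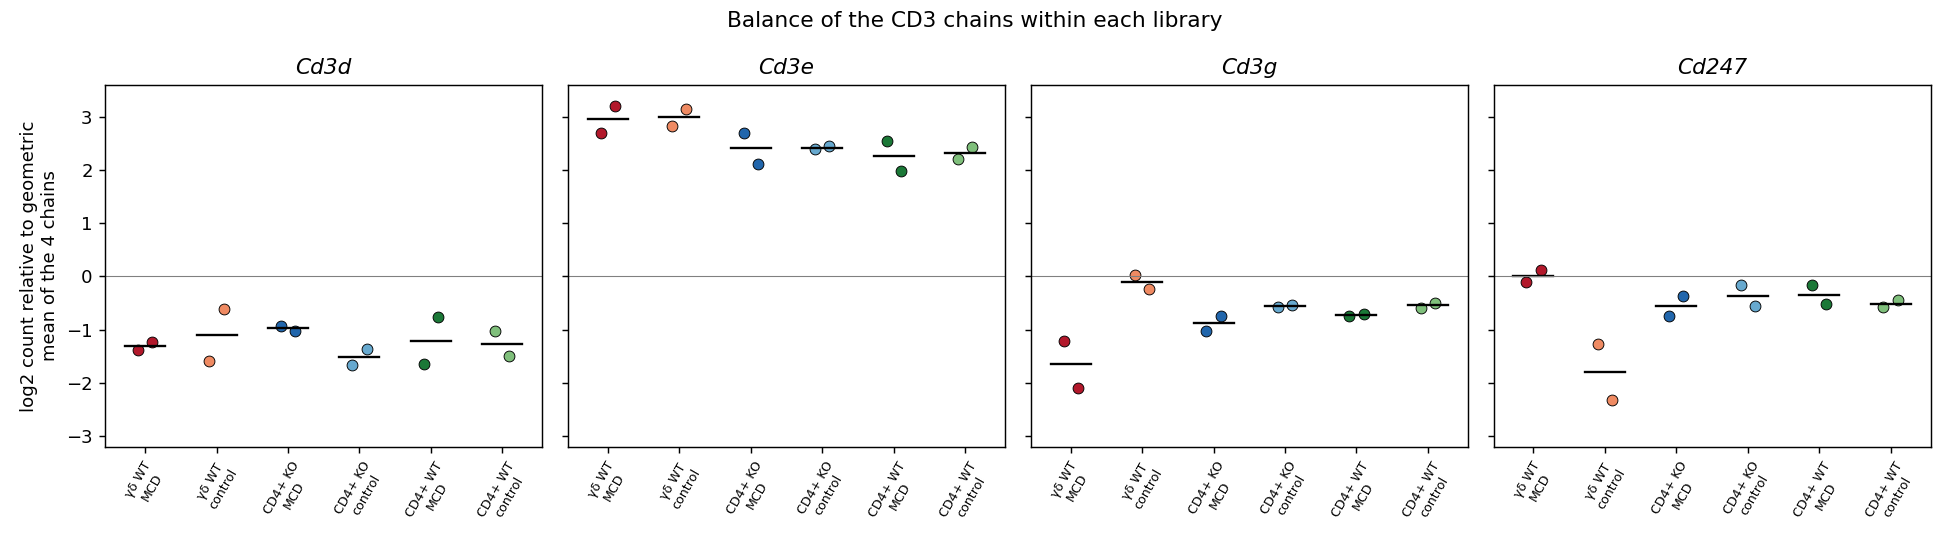
Log2 ratio of each CD3 gene's count to the geometric mean of Cd3d, Cd3e, Cd3g and Cd247 counts in the same library, by group, γδ groups at the left; each point is a library. Cd3e sits highest in every library and higher in the 4 γδ than in the 8 CD4+ libraries, and Cd3g and Cd247 change places between the γδ diet groups.

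Per length, in the deposited FPKM, Cd3e was the most abundant CD3 mRNA in every library. It made up 75.4 to 81.6% (median 76.1%) of the CD3 FPKM in γδ libraries and 60.3 to 74.2% (median 70.5%) in CD4+ libraries. Cd3d took 7.87 to 12.7% in γδ and 8.93 to 20% in CD4+ libraries. Cd247 took 1.33 to 8.28% in γδ and 5.25 to 9.13% in CD4+ libraries, with the lowest share in γδ control library 7. The count ratio of Cd3g to Cd247 was 0.467 and 0.217 in γδ MCD, 2.44 and 4.24 in γδ control, and 0.663 to 1.02 in CD4+ libraries, so the γδ diet groups lay on either side of all CD4+ libraries.

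Among the co-receptors, Cd4 was nearly absent from γδ libraries, and Cd8a was well above its CD4+ level in all of them. Cd4 had 4.29 and 1.21 CPM in γδ MCD and 1.02 and 0.975 CPM in γδ control, and 632 to 1448 CPM in the 8 CD4+ libraries. CD4 protein defined the sort, so this difference (404-fold lower mean in γδ over both diets) checks the labels and is not a finding. The low γδ values were counts of 52 and 18 in MCD and of 20 and 18 in control. Among CD4+ libraries Cd4 was highest in knockout control library 2 (1448 CPM), followed by knockout MCD library 2 (1030 CPM).

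Cd8a encodes CD8α, which forms CD8αα homodimers or pairs with CD8β. It had 80.2 and 51.7 CPM in γδ MCD and 322 and 171 CPM in γδ control. CD4+ libraries had 0.875 and 1.93 CPM in knockout MCD, 0.0488 and 2.07 CPM in knockout control, 6.39 and 11.2 CPM in WT MCD, and 3.18 and 5.42 CPM in WT control. The γδ libraries thus lay above every CD4+ library, and all knockout lay below all WT CD4+ libraries. Cd8a rose to a mean of 156 CPM in γδ, against 6.54 CPM in CD4+ T cells of WT mice, 23.9-fold, with a log2 difference of 4.35 ± 0.72 (adjusted p = 0.00368, edgeR, over both diets). It was 57.4-fold higher under control diet (log2 difference 5.81 ± 1.10, adjusted p = 0.0253, edgeR). Under MCD the ratio was 7.51 (log2 difference 2.89 ± 0.96), which did not pass (adjusted p = 0.117, edgeR). Genes listed as markers of other cells that express Cd8a or could enter the gate were read beside it. The sum of 6 dendritic cell genes was 90.8 to 149 CPM in γδ and 3.13 to 49.6 CPM in CD4+ libraries. Itgax led this sum in γδ libraries, with 52.7 and 64.9 CPM in MCD and 122 and 116 CPM in control. Flt3 had 18.1 and 11.3 CPM in γδ MCD but 0.0509 and 0 CPM in γδ control. Siglech stayed at or below 0.806 CPM in γδ libraries. The 5 NK and innate lymphoid genes summed to 78.6 to 341 CPM in γδ and 6.34 to 83.2 CPM in CD4+ libraries. Of the markers of CD8α+ dendritic cells, Xcr1 had 24.2 and 1.88 CPM in γδ MCD and 2.39 and 8.56 CPM in γδ control, against 0.731 to 39.8 CPM in CD4+ libraries, the highest of all 12 being knockout MCD library 2. Clec9a had 0 and 0.873 CPM in γδ MCD and 0.407 and 12.4 CPM in γδ control, against 0 to 2.63 CPM in CD4+ libraries. CD8 also acts beside the αβ receptor, whose genes summed to 149 and 403 CPM in γδ MCD and 262 and 259 CPM in γδ control. In CD4+ libraries they summed to 576 to 1160 CPM. The part of dendritic cells, NK cells and CD8+ αβ T cells in the Cd8a and Cd8b1 values was not tested.

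Cd8b1 encodes CD8β, which reaches the surface only in a pair with CD8α. It had 2.56 and 18.3 CPM in γδ MCD and 4.78 and 18.9 CPM in γδ control, and 0.139 to 6.83 CPM in CD4+ libraries, so γδ and CD4+ values overlapped. The log2 difference between γδ and CD4+ T cells of WT mice was 2.16 ± 1.15 (adjusted p = 0.254, edgeR). Per length, the ratio of Cd8a to Cd8b1 FPKM was 12.8 and 1.15 in γδ MCD and 27.5 and 3.70 in γδ control. In CD4+ libraries it was 0.00426 to 1.04 with 1 exception, WT MCD library 3, where 3 counts of Cd8b1 gave 33.1. All 4 γδ libraries therefore held more Cd8a than Cd8b1 per length, by a factor that differed more within a diet than between the diets.

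**Figure D3:**
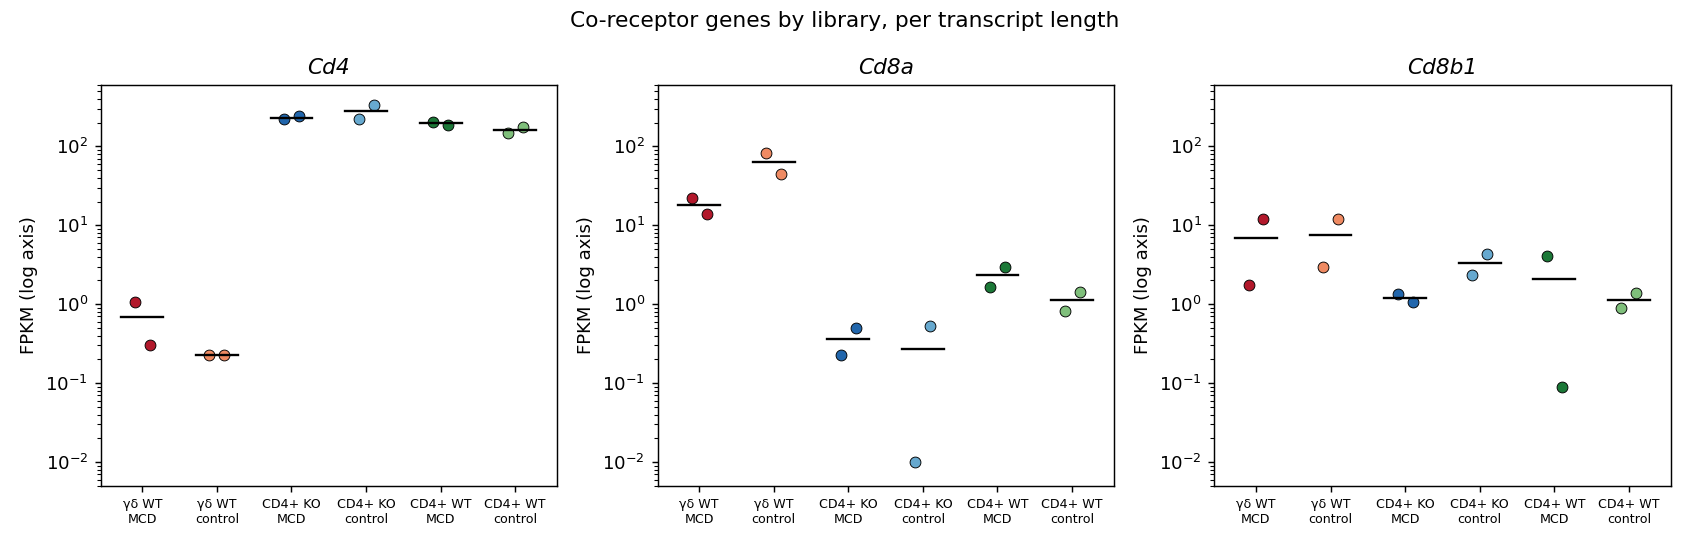
Deposited FPKM of Cd4, Cd8a and Cd8b1 on a log axis in the 6 groups, γδ groups at the left; bars are means of 2 libraries and points are libraries. Cd4 is at most 1.08 FPKM in γδ and at least 147 FPKM in CD4+ libraries, and Cd8a is 14.0 to 82.1 FPKM in γδ and at most 2.98 FPKM in CD4+ libraries.

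Of the other surface molecules, Cd5 was lower in γδ than in CD4+ T cells, while Thy1 and Cd2 did not pass. CD5 is an inhibitory receptor whose level is known to follow the strength of receptor signalling in the thymus. It had 1.24 and 42.1 CPM in γδ MCD and 11.3 and 6.34 CPM in γδ control, against 73.8 and 113 CPM in WT MCD and 75.3 and 73.0 CPM in WT control CD4+ libraries. All γδ values lay below all CD4+ values, but the γδ MCD pair was 34.0-fold apart, with 15 counts in library 2 and 626 in library 4. Mean Cd5 fell to 15.2 CPM in γδ, against 83.9 CPM in CD4+ T cells of WT mice, 5.50-fold lower, with a log2 difference of -2.58 ± 0.69 (adjusted p = 0.045, edgeR, over both diets). This call is close to the threshold: it was lost in 10 of the 12 fits that left out 1 library (adjusted p = 0.0584 to 0.149), including all 4 knockout libraries that only add to the estimate of spread. It held without γδ MCD library 4 (-4.62, adjusted p = 4.08e-05) and without γδ MCD library 2 (-2.12, adjusted p = 0.00233), fits that called 2548 and 1585 of all genes, against 966 with all libraries. Library 4 of γδ MCD held the most αβ receptor RNA of the γδ libraries, with Trac at 87.2 CPM against 30.1 CPM in library 2, and its part in the Cd5 value was not tested. Under either diet alone Cd5 did not pass (log2 difference -2.11 ± 0.96 under MCD, adjusted p = 0.222, and -3.05 (SE 0.998) under control diet, adjusted p = 0.269, edgeR).

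Thy1, the GPI-anchored protein CD90 found on all mouse T cells, had 226 and 332 CPM in γδ MCD and 389 and 325 CPM in γδ control. CD4+ libraries ranged more widely, with 256 and 150 CPM in knockout MCD, 682 and 405 CPM in knockout control, 353 and 373 CPM in WT MCD, and 249 and 206 CPM in WT control. The highest and the lowest Thy1 value of all 12 libraries both came from knockout CD4+ T cells. Cd2, which encodes the adhesion receptor for CD48, had 80.1 and 36.1 CPM in γδ MCD and 163 and 78.0 CPM in γδ control, against 146 and 131 CPM in WT MCD and 115 and 104 CPM in WT control. Under MCD the γδ values lay below the CD4+ values (log2 difference -1.25 ± 0.47, adjusted p = 0.156, edgeR), and under control diet they overlapped.

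**Figure D4:**
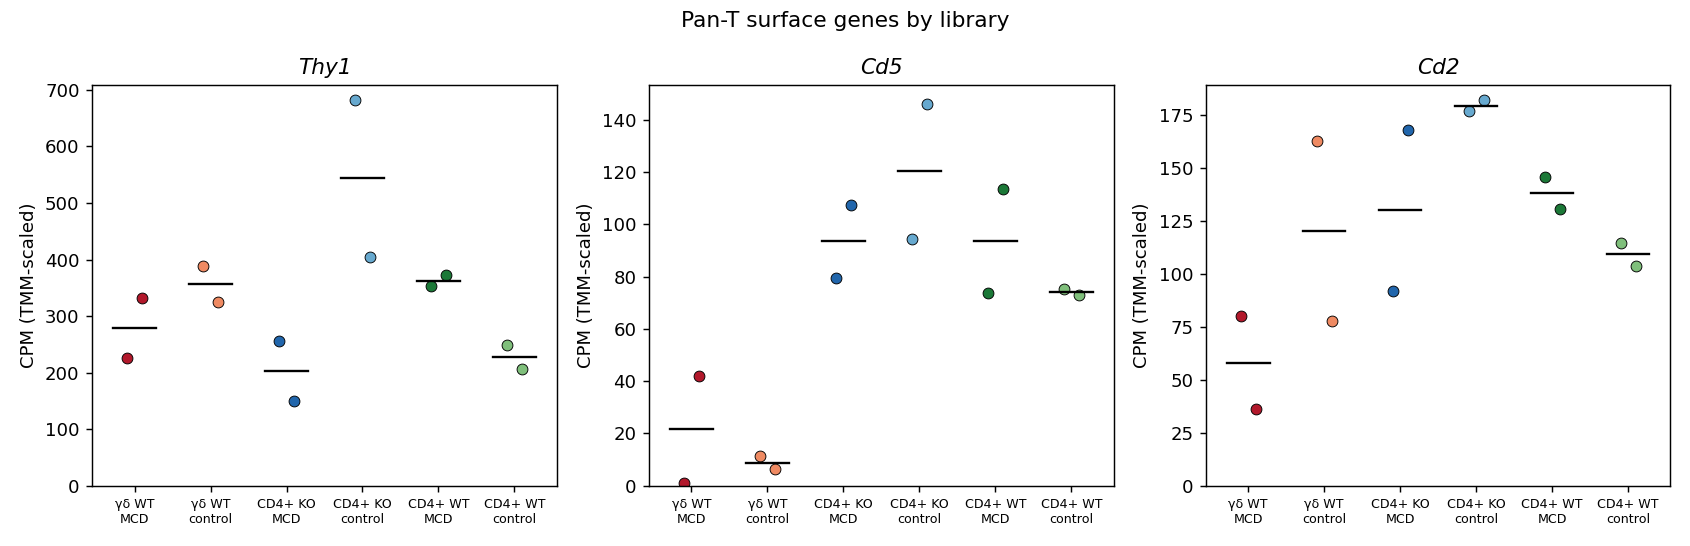
CPM (TMM-scaled) of Thy1, Cd5 and Cd2 in the 6 groups, γδ groups at the left; bars are means of 2 libraries and points are libraries. Cd5 in the γδ libraries is 1.24 to 42.1 CPM, below the 73.0 to 146 CPM of CD4+ libraries, and Thy1 in knockout CD4+ T cells lies at 150 and 256 CPM under MCD and at 405 and 682 CPM under control diet.

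Counted over the 10 genes, γδ against CD4+ T cells of WT mice over both diets called 4, where 5.96% of all genes tested were called. One of the 4 is Cd4, which the sort set, and the others are Cd3e and Cd8a (higher) and Cd5 (lower). Under control diet 3 were called, Cd3e and Cd8a (higher) beside the sort marker Cd4, where the share over all genes was 0.654%. Leaving out any 1 of the 4 libraries compared left Cd4 as the single call under control diet, with adjusted p of 0.131 to 0.306 for Cd3e and 0.0895 to 0.346 for Cd8a, in fits that called 27 to 57 of all genes, against 106 with all libraries. Under MCD Cd4 was called and no gene beside this sort marker, where the share over all genes was 2.65%. Without γδ MCD library 4 the count under MCD was 4 (with Cd3e and Cd8a higher and Cd5 lower), and without γδ MCD library 2 it was 3 (with Cd3g and Cd2 lower). These fits called 2095 genes (without library 4) and 886 genes (without library 2) of all 16218, against 430 with all libraries. Without either knockout control library it was 2, with Cd8a higher, and 312 and 305 of all genes were called. The difference of the diet effect between the cell types was tested as an interaction: no gene of the 10 and none of all 16218 passed for the interaction of diet and cell type, where 3 of the 10 (Cd3g, Cd8a and Thy1) and 10.6% of all genes had an unadjusted p under 0.05, with 544 genes called by DESeq2 and 0 by limma-voom, none of them among the 10. Without γδ MCD library 4, Cd4 (1.76, adjusted p = 0.0218, edgeR) and Cd5 (-3.07, adjusted p = 0.0366) passed for this interaction, as did 455 of all 16218 genes.

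**Figure D5:**
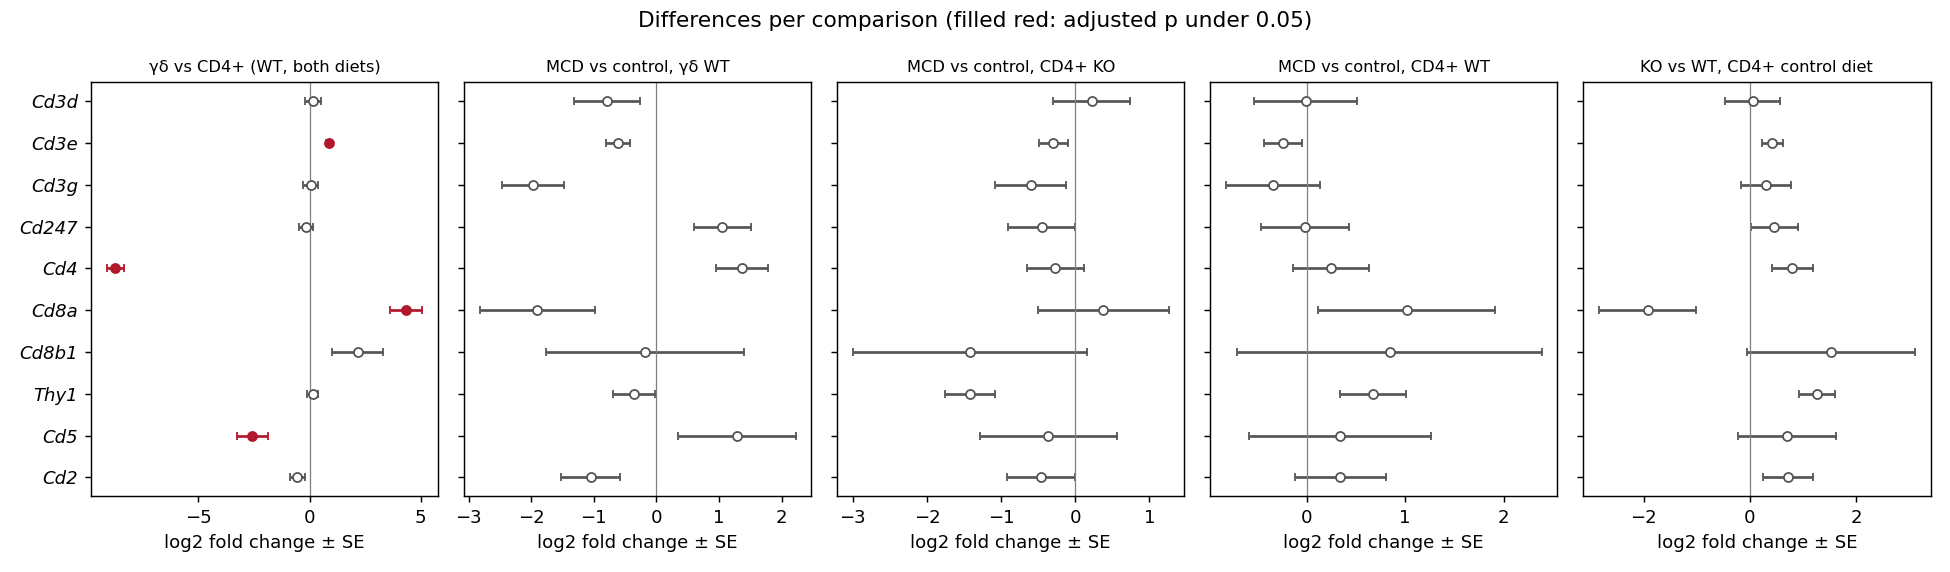
Log2 fold change with SE (edgeR, all 12 libraries in 1 fit) of the 10 genes in each comparison, first-named over second-named group. Between γδ and CD4+ T cells of WT mice over both diets, Cd8a stands at 4.35 and Cd3e at 0.87 above 0, and Cd4 at -8.74 and Cd5 at -2.58 below it.

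The study's design text asks for the effect of the diet on γδ T cells, and in them none of the 10 genes passed. No gene of all 16218 did either in edgeR's test (0% called), with 5 of the 10 and 17.5% of all genes at an unadjusted p under 0.05. DESeq2 called 1900 genes, Cd3g and Cd4 among them, and limma-voom called 63 and none of the 10. Cd3d (log2 difference -0.79 ± 0.52), Cd3e (-0.62 ± 0.20), Cd3g and Cd8a (-1.90 ± 0.92) lay lower in MCD than in control without overlap, and Cd247 and Cd4 lay higher. That is 6 of 10 without overlap, where 33.2% of all genes were. Cd8b1, Thy1, Cd5 and Cd2 overlapped. Cd4 had a log2 difference of 1.36 ± 0.42 (adjusted p = 0.156, edgeR) at counts of 18 to 52. Which γδ MCD library was kept decided several calls. Without library 2, Cd3g passed at -2.87 (adjusted p = 0.0146, edgeR) and Cd5 at 2.26 (adjusted p = 0.0265). Without library 4, Cd4 passed at 2.01 (adjusted p = 0.00296, edgeR) and Cd5 passed in the other direction, at -2.74 (adjusted p = 0.0181). Over all genes these fits called 484 (without library 2) and 1342 (without library 4), against 0 with all libraries. Beside these values, the γδ receptor genes summed to 2342 and 1741 CPM in MCD and 3227 and 3062 CPM in control γδ libraries, and the neutrophil and monocyte genes to 2158 and 2010 CPM in MCD and 868 and 1780 CPM in control. The sinusoidal endothelial genes summed to 50.4 and 31.9 CPM in MCD and 571 and 1064 CPM in control. The B and plasma cell genes summed to 6.03 and 7.66 CPM in MCD and 151 and 76.3 CPM in control, led there by Igkc at 139 and 66.8 CPM. Their part in the diet values was not tested.

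In CD4+ T cells of WT mice on MCD against control diet, none of the 10 passed (edgeR, 0% of all genes called), none had an unadjusted p under 0.05, where 2.13% of all genes did, and DESeq2 and limma-voom called none. DESeq2 called 39 of all genes and limma-voom 0. Thy1 had the smallest p of the 10, with a log2 difference of 0.67 ± 0.34 (unadjusted p = 0.0649, adjusted p = 1). Cd3e lay lower in MCD, with a log2 difference of -0.24 ± 0.20, and Cd8a higher, with 1.01 ± 0.90, both without overlap. The groups did not overlap for 6 of the 10 genes, where 33.9% of all genes did not.

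In CD4+ T cells of knockout mice, Thy1 lay lower on MCD than on control diet, with means of 203 CPM on MCD and 544 CPM on control diet. The log2 difference was -1.42 ± 0.34, with an unadjusted p of 0.00101, and it did not pass over all genes (adjusted p = 0.278, edgeR). DESeq2 called it (adjusted p = 0.0459) as 1 of 228 genes, 1.41% of all tested. Limma-voom called 19 genes and none of the 10. No other gene of the 10 reached an unadjusted p under 0.05, where 6.06% of all genes did, and edgeR called 0.0370% of all genes. Of the 10, 5 lay lower without overlap (Cd3g, Cd247, Cd8b1, Thy1 and Cd2) and none higher, where 18.1% of all genes lay lower and 20.8% higher. For Cd8b1 the log2 difference of -1.42 was smaller than its SE of 1.58. The αβ receptor genes summed to 681 and 634 CPM in knockout MCD and 971 and 1160 CPM in knockout control libraries. The NK and innate lymphoid genes summed to 83.1 and 38 CPM in knockout MCD and 6.34 and 8.85 CPM in knockout control, and the dendritic cell genes to 16.7 and 49.6 CPM in knockout MCD and 3.41 and 3.13 CPM in knockout control. Single genes led both sums of knockout MCD library 2, with Eomes at 36.2 of the 38 CPM and Xcr1 at 39.8 of the 49.6 CPM. Klrb1c, another NK gene of the list, had 55.1 and 0.828 CPM in knockout MCD and 5.75 and 6.20 CPM in knockout control. The genes of the NK list therefore did not move together. The mitochondrial share was 52.7 and 51.1% in the knockout control libraries, the highest of the CD4+ libraries. The part of these sums and shares in the values was not tested.

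Between genotypes on control diet, 8 of the 10 genes lay higher in knockout than in WT CD4+ libraries without overlap, where 16.7% of all genes did. Of these 8, Cd3e had a log2 difference of 0.42 ± 0.20, Cd247 0.46 ± 0.45, Cd4 0.80 ± 0.39, Cd2 0.72 ± 0.46 and Thy1 1.26 ± 0.34. Those of Cd3g (0.31, SE 0.48), Cd5 (0.70, SE 0.93) and Cd8b1 (1.52, SE 1.58) were smaller than their SE. Cd8a was the 1 gene of the 10 that lay lower without overlap (-1.92 ± 0.92), where 20.6% of all genes did, with counts of 1 and 43 in knockout and 69 and 125 in WT control libraries. None passed over all genes (edgeR called 0.0247% of all genes; Thy1 alone of the 10 had an unadjusted p under 0.05, at 0.00248, where 4.03% of all genes did, and its adjusted p was 0.762), and DESeq2, which called 115 genes, and limma-voom, which called 6, called none of the 10. Scaled by library size alone, the median of all genes shifted by -0.36 (log2), and Cd3g lay below 0 at -0.06. The αβ receptor genes summed to 971 and 1160 CPM in knockout and 760 and 803 CPM in WT control CD4+ libraries, and the γδ receptor genes to 16 and 26.3 CPM in knockout and 227 and 307 CPM in WT. Their part in these differences was not tested.

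On MCD diet, Cd8a had 0.875 and 1.93 CPM in knockout and 6.39 and 11.2 CPM in WT CD4+ libraries (log2 difference -2.56 ± 0.94, unadjusted p = 0.0168, adjusted p = 1, edgeR). Thy1 lay lower in knockout on this diet, with a mean of 203 CPM against 363 CPM in WT (-0.84 ± 0.34, unadjusted p = 0.0265, adjusted p = 1, edgeR). None of the 10 passed and 0% of all genes were called, while 2.08% had an unadjusted p under 0.05. DESeq2 called 35 genes and limma-voom 0, none of the 10 among them. The groups did not overlap for 4 of the 10 (Cd3e and Cd4 higher, Cd8a and Thy1 lower in knockout), where 32.9% of all genes did not, though the log2 difference of Cd4 (0.27, SE 0.38) was smaller than its SE. Both genotype comparisons place Cd8a lower in knockout CD4+ T cells, at levels of 1 to 43 counts in knockout and 69 to 242 counts in WT libraries. Neutrophil and monocyte genes summed to 80.5 and 23.3 CPM in knockout MCD and 20.3 and 25.1 CPM in WT MCD libraries, and the γδ receptor genes to 83.9 and 22.2 CPM in knockout MCD and 123 and 60.4 CPM in WT MCD.

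Whether the diet effect on CD4+ T cells differed between knockout and WT mice was tested as an interaction of diet and genotype. None of the 10 genes and none of all genes passed in edgeR's test (0% called). Thy1 alone of the 10 had an unadjusted p under 0.05, where 4.33% of all genes did, with an interaction of -2.10 ± 0.48 on the log2 scale (adjusted p = 0.694). DESeq2 called 66 genes and limma-voom 1, neither with a gene of the 10 among them.

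The genes that act next to the receptor were read from a list of 52 proximal signalling and costimulation genes, 51 of which were tested. Between γδ and CD4+ T cells of WT mice over both diets, 5 rose and 7 fell, 23.5% of those tested, where 5.96% of all genes were called; the median log2 difference was -0.01, against -0.23 over all genes. Cd7, a surface protein of T and NK cells, was higher in γδ (73.4 CPM) than in CD4+ T cells (3.94 CPM, adjusted p = 0.0137). The CD2 ligand Cd48 was higher too (141 CPM in γδ and 55.9 CPM in CD4+ T cells, adjusted p = 0.0422). So were the adaptor Lcp2 (adjusted p = 0.0418), the ubiquitin ligase Cbl (adjusted p = 0.0483) and the adaptor Sh2d2a (adjusted p = 0.0486). Lower in γδ was the adaptor Lat (33.9 CPM in γδ and 130.2 CPM in CD4+ T cells, adjusted p = 0.00431). The costimulatory receptor Cd28 was lower too (113 CPM in γδ and 389 CPM in CD4+ T cells, adjusted p = 0.012). So was the diacylglycerol kinase Dgka (198 CPM in γδ and 811 CPM in CD4+ T cells, adjusted p = 0.000785). Slamf6 was also lower (26.1 CPM in γδ and 188 CPM in CD4+ T cells, adjusted p = 0.000368). Slamf1 (adjusted p = 0.0177), Skap1 (adjusted p = 0.0358) and Trat1 (adjusted p = 0.0464) were lower as well. All adjusted p are edgeR's over all genes. Whether these calls hold with 1 library left out was not tested. Under control diet 1 gene rose (Cd7) and 2 fell (Dgka and Slamf6), and under MCD 1 rose (Cbl) and 4 fell (Slamf6, Lat, Skap1 and Dgka). Cd7 had 7.03 ± 1.65 CPM in γδ MCD and 140 ± 4.86 CPM in γδ control libraries (SD, n = 2 each), so its mean over both diets rests on the control diet. Cd7, Skap1 and Cbl overlapped between the cell types over both diets. Cbl had 775 ± 340 CPM in γδ MCD and 373 ± 24.3 CPM in γδ control, against 274 ± 10.8 CPM in WT MCD CD4+ libraries, and Skap1 had 18.3 ± 0.752 CPM in γδ MCD and 97.0 ± 66.9 CPM in γδ control, against 108 ± 6.39 CPM in WT MCD CD4+ libraries (SD, n = 2 each).

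None of the 51 genes passed in either diet effect on CD4+ T cells, in the diet effect on γδ T cells, in either genotype comparison or in either interaction. In γδ T cells, 7 of them had an unadjusted p under 0.05 between diets, where 17.5% of all genes did; the smallest p belonged to Skap1 (18.3 CPM in MCD and 97.0 CPM in control, adjusted p = 0.0818, edgeR), Cd7 (adjusted p = 0.0911), Malt1 (226 CPM in MCD and 68.0 CPM in control, adjusted p = 0.12) and Cbl (775 CPM in MCD and 373 CPM in control, adjusted p = 0.127). In knockout CD4+ T cells the phosphatase gene Ptpn22 came nearest between diets, with 427 ± 25.1 CPM in MCD and 147 ± 5.29 CPM in control libraries (SD, n = 2 each; adjusted p = 0.0909, edgeR). Sla followed with an adjusted p of 0.452 and Cd7 with 0.787. In WT CD4+ T cells the 4 smallest p between diets, Sla, Fyb, Nck1 and Rasgrp1, all had an adjusted p of 1, as had Ptpn22, Cd226 and Fyb between genotypes on control diet and Tec, Txk, Plcg1 and Ptprc between genotypes on MCD.

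The genes whose level followed a member most closely over the 12 libraries were found among 7948 candidates by the root mean square difference of centred log2 CPM. Closest to Cd3e, at 0.212 to 0.218, were Arpc2, Tecr and Arhgdib, against a median of 1.03 over candidates and a Cd3e range of 1.37. Closest to Cd5 was Cd6, which encodes its nearest relative among the scavenger receptor proteins, at 0.531, followed by Mum1 and Carmil2, against a median of 2.12. Cd6 had 0.413 to 16.5 CPM in γδ and 40.3 to 62.2 CPM in CD4+ libraries. Closest to Cd4 were Sele (1.44), Foxp3 (1.62) and U2af1l4 (1.66), against a median of 4.38, with Foxp3 at 0 to 4.17 CPM in γδ and 36.3 to 66.5 CPM in CD4+ libraries. Closest to Cd8a were C3ar1 (1.24), Pygl (1.27) and Cxxc5 (1.48), against a median of 3.29, with C3ar1 at 45.3 to 66.6 CPM in γδ and 0 to 4.57 CPM in CD4+ libraries. The 12 points of each pattern share their libraries, and the differences for Cd4 and Cd8a are set mainly by the split of γδ from CD4+ libraries.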

How the data were processed

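T cells were sorted straight into lysis buffer and their RNA sequenced on an Illumina instrument. The submitters' processing notes name bcl2fastq, STAR, featureCounts, DESeq2 and mm10 (GRCm38), and versions are not given in the sources used here. Raw gene counts, the main input, and FPKM were deposited by the authors. The deposited FPKM were divided by library factors that matched DESeq2 size factors of the counts within 0.000586 percent, and total counts only within 38.3 percent. FPKM were used for levels per length and as an alternative on log2(FPKM + 1) and log2(FPKM + 0.1).

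The 12 libraries were grouped by their labels. Genes were kept by filterByExpr (minimum count 10, minimum total 15), and all 12 libraries were fitted with 1 coefficient per group in edgeR 4.0.16 (R 4.3.3; TMM, quasi-likelihood test, 2-sided). P-values were adjusted by Benjamini-Hochberg over 16218 genes, called below 0.05. A prior count of 2 entered log2 fold changes, and the SE was the fold change divided by the square root of F. CPM used TMM-scaled library sizes. The script was tested on simulated data. DESeq2 1.42.0 and limma-voom (limma 3.58.1) were alternatives. CD3 balance used an exact permutation test over libraries.

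The members and lists were chosen with earlier results of these data known. All 10 members are named; from the signalling list, each gene that passed is named, or the 4 smallest p where fewer than 4 passed; 1 gene that this rule names is not reported here. Nearest genes exclude receptor segments, mitochondrial genes, unnamed transcripts and pseudogenes, and need a mean of 5 CPM.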

Additional observations from a re-analysis of the deposited data

Results flagged for a closer look

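The diet values of Thy1 lay in opposite directions in the genotypes of CD4+ T cells. Thy1 had 256 and 150 CPM in knockout MCD against 682 and 405 CPM in knockout control libraries, and 353 and 373 CPM in WT MCD against 249 and 206 CPM in WT control libraries, so every knockout MCD library lay below and every WT MCD library above its control libraries. The interaction on the log2 scale was -2.095 ± 0.477 (unadjusted p = 0.000672), which did not pass over all genes in edgeR's test (adjusted p = 0.694).

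For Cd2, opposite directions rest on the order of the libraries alone. It had 92.0 and 168 CPM in knockout MCD against 177 and 182 CPM in knockout control, and 146 and 131 CPM in WT MCD against 115 and 104 CPM in WT control libraries. The WT diet difference of 0.34 was smaller than its SE of 0.46. Its interaction was -0.803 ± 0.654 (unadjusted p = 0.24, adjusted p = 1, edgeR).

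Cd8a lay in opposite directions between the diets in the 2 cell types of WT mice. It had 80.2 and 51.7 CPM in γδ MCD against 322 and 171 CPM in γδ control, and 6.39 and 11.2 CPM in WT MCD against 3.18 and 5.42 CPM in WT control CD4+ libraries. The interaction was -2.915 ± 1.286 (unadjusted p = 0.0404, adjusted p = 0.458, edgeR).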

How the results depend on the processing

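Of 100 log2 differences, 40 were smaller than their SE, and their sign was not followed over the alternatives. The other 60 kept their sign and side of the threshold in 1354 of 1414 alternatives, lost the call in 21, gained it in 30 and changed sign in 9. For the diet in γδ T cells, 2 of the 10 genes were called without the filter, beside 555 of all 25883 genes. DESeq2 also called 2 of the 10 there, beside 1900 of all 16218 genes. For the diet in knockout CD4+ T cells, 1 of the 10 was called without the filter, beside 105 of all 25883 genes. DESeq2 also called 1 there, beside 228 of all 16218 genes. Between γδ and CD4+ T cells, 1 to 4 genes were called with 1 library left out on control diet and 1 to 4 on MCD. On MCD, 2 were called with library size alone (748 of all genes), DESeq2 (2685), limma-voom (787) and log2(FPKM + 1) (659). Without the filter 3 were called, beside 1071 of all 25883 genes, against 430 of 16218 in the main fit. For the interaction of diet and genotype 1 was called without the filter, beside 44 of all 25883 genes. The sign of the γδ diet difference of Cd5 changed with limma-voom (-0.073) and log2(FPKM + 0.1) (-0.062), and it ran from -2.74 to 2.26 with 1 library left out. With library size alone the sign changed for Cd3e in the knockout diet effect (0.0077), Cd3d between γδ and CD4+ T cells on control diet (-0.046) and Cd3e on MCD (-0.11). With 1 library left out, Cd8b1 ran from -0.35 to 5.45 between γδ and CD4+ T cells on MCD and from -3.21 to 1.54 in the interaction of diet and genotype, and Cd3d from -1.31 to 0.089 in that of diet and cell type. The CD3 balance with 1 library left out ran from -0.16 to 0.16 for Cd3d, -0.50 to 0.20 for Cd3g, -0.79 to 0.021 for Cd247 and 0.54 to 0.71 for Cd3e (adjusted p = 0.0121 to 0.0485, exact permutation test), and for Cd3e against WT CD4+ libraries only it was 0.68 (adjusted p = 0.114). The cause of these changes was not tested. A fit with 1 library in a group assumes that it varies like the others. With the replicate number of the knockout libraries as a block, 0 of the 10 genes and 7 of all genes were called for the knockout diet effect (6 without the block). The deviations of same-numbered libraries did not correlate across genes (r = -0.006). This value cannot exclude a pairing with a small effect or with an effect on few genes. Leaving out both γδ MCD libraries, an alternative added after seeing the data, gave 4 calls on control diet between the cell types. That fit called 285 of all 16218 genes, against 106 with all libraries. Over all genes and the settings other than leaving out 1 library, the count of calls ran from 0 to 1900 for the γδ diet effect, 0 to 39 for the WT and 3 to 228 for the knockout CD4+ diet effect, 2 to 115 between genotypes on control diet and 0 to 35 on MCD, 99 to 852 between the cell types on control diet, 9 to 2685 on MCD and 471 to 2954 over both, 0 to 66 for the interaction of diet and genotype and 0 to 544 for that of diet and cell type. With 1 library left out it ran from 0 to 1342 for the γδ diet effect, and from 27 to 305 on control diet, 47 to 2095 on MCD and 311 to 2548 over both diets between the cell types. Cd8a in knockout libraries rests on 1 to 43 counts.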
